A study of Homo sapiens with 5 samples.

Results

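The transcriptome of a FOXQ1-overexpressing mammary epithelial line was compared with those of lines carrying SNAI1, TWIST1 or ZEB2, other drivers of the epithelial to mesenchymal transition (EMT). The comparison uses 4 of the 5 arrays of the study. The fifth, a LACZ control, enters only the choice of probe set, the level floor and the alternative scalings described below. All lines were made from HMLE, immortalised human breast epithelial cells. The labels give the genotypes as overexpression of FOXQ1, SNAI1, TWIST1 or ZEB2, with no drug or other treatment and with RNA taken from cells near confluence. Whether a line was 1 clone or a pool, and which promoter drove the factor, was not given in the sources used here. Each line had 1 array, so no value has a replicate check, no test between lines was possible, and every difference describes these 4 arrays. Levels are given in the units of the deposited table, taken to be log2. In all, 14912 genes on chromosomes 1 to 8 and part of 9 could be named. SNAI1 itself and the rest of the genome were not analysed here.

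EMT is the programme by which epithelial cells loosen their contacts, change their cytoskeleton and matrix, and become motile. SNAI1 and ZEB2 are zinc finger repressors and TWIST1 is a basic helix-loop-helix factor, and these proteins bind E-box elements. FOXQ1 belongs to the forkhead family, which recognises a different DNA element, and it is known in breast cancer models as an inducer of EMT. The comparison asks which genes set the FOXQ1 line apart from all 3 others.

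The overexpressed factors were read first. FOXQ1 (GRCh38.p14 chromosome 6, 1312098 to 1314758) was at 6.23 in the FOXQ1 line against 3.61 (SNAI1), 3.56 (TWIST1) and 3.58 (ZEB2), so it stood above the nearest line by 2.62 and the other 3 lay below the level floor of 4.72. TWIST1 was at 8.20 in the FOXQ1 line against 9.18 (SNAI1), 9.96 (TWIST1) and 8.55 (ZEB2), and its own line held the highest value. ZEB2 was at 6.85 in the FOXQ1 line against 6.23 (SNAI1), 7.03 (TWIST1) and 7.39 (ZEB2), and its own line again held the highest value, by a small margin over TWIST1. Endogenous transcript and transgene cannot be told apart in these values.

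Markers of cell identity were set beside the lines. The epithelial adhesion gene EPCAM lay below the floor in all 4 lines, at 2.75 in the FOXQ1 line against 2.92 (SNAI1), 2.63 (TWIST1) and 3.18 (ZEB2). ITGA6, an integrin of basal mammary cells, was at 13.27 in the FOXQ1 line against 9.92 (SNAI1), 13.29 (TWIST1) and 14.23 (ZEB2). CD24, a surface glycoprotein, was at 6.69 in the FOXQ1 line against 9.58 (SNAI1), 10.83 (TWIST1) and 6.43 (ZEB2). The summed level of these 3 mammary epithelial markers was 22.71 in the FOXQ1 line against 22.42 to 26.75 in the others. Of 6 measured leukocyte markers, CD2, CD8A, CD14 and CSF1R were below the floor in every line, PTPRC stayed between 4.90 and 4.94, and the summed level of the 6 was 29.68 in the FOXQ1 line against 22.68 to 26.30 in the others. LAPTM5, a lysosomal protein best known from blood cells, made up most of that gap, at 10.45 in the FOXQ1 line against 5.67 (SNAI1), 7.29 (TWIST1) and 3.78 (ZEB2). Of 3 endothelial markers KDR and TEK were below the floor in all 4 lines, and the summed level was 11.55 against 11.26 to 11.46. The summed level of 5 stromal fibroblast markers was 43.25 against 39.35 to 47.13, inside the range of the others. The summed level of 8 adipocyte and muscle markers was 48.28 against 42.26 to 46.10, with ADIPOQ, LEP and TTN below the floor in all 4 lines. The part of these markers in the differences below was not tested. In bulk RNA, fewer cells of a kind and less RNA per cell cannot be told apart.

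Among the 6 pairs of lines, those with FOXQ1 held the most genes very far apart. Differences of at least 16-fold, a log2 difference of 4, were found for 71 genes between FOXQ1 and SNAI1, 52 between FOXQ1 and TWIST1 and 79 between FOXQ1 and ZEB2. The pairs without FOXQ1 held 6 (SNAI1 and TWIST1), 18 (SNAI1 and ZEB2) and 14 (TWIST1 and ZEB2). At the 2-fold threshold the pairs were less separate. FOXQ1 differed from SNAI1 in 1646 genes (11% of all), from TWIST1 in 1152 (7.73%) and from ZEB2 in 1561 (10.5%). SNAI1 and TWIST1 differed in 1249 (8.38%), SNAI1 and ZEB2 in 1140 (7.64%) and TWIST1 and ZEB2 in 740 (4.96%). SNAI1 and TWIST1 were thus 2-fold apart in more genes than FOXQ1 and TWIST1. Direction also depended on the partner: FOXQ1 was the higher line for 1075 genes and the lower for 571 against SNAI1, but 348 and 804 against TWIST1, and 580 and 981 against ZEB2.

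**Figure D1:**
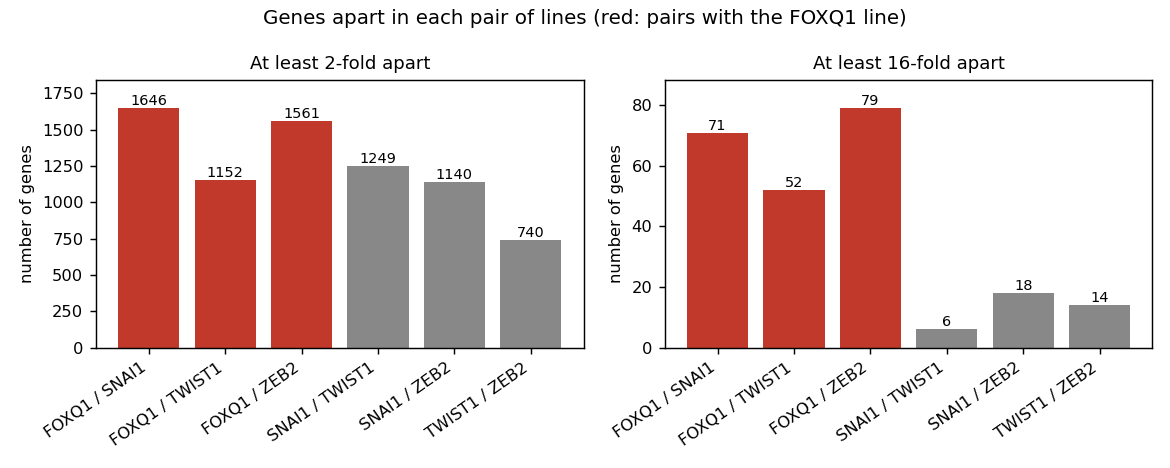
Number of genes at least 2-fold apart (left) and at least 16-fold apart (right) in each pair of lines, with 1 array per line and the pairs that include FOXQ1 in red. The 3 red bars at 16-fold reach 52 to 79 genes, and the other 3 reach 6 to 18.

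A gene was called when the FOXQ1 line lay at least 1 log2 unit, or 2-fold, outside the range of the other 3 lines, with the higher side at or above the floor. By this rule 220 genes (1.48% of 14912) were higher in the FOXQ1 line and 336 (2.25%) were lower. Leaving out the TWIST1 array raised the higher count to 435, and leaving out the SNAI1 array raised the lower count to 536. Against the mean of the 3 lines alone, 523 genes (3.51%) were higher and 638 (4.28%) lower. The rule favours genes on which the other lines are close together, and the 3 lines spanned less than FOXQ1's distance to the nearest of them for 169 of the 220 and 292 of the 336. Large distances were more frequent on the lower side, where 106 genes were at least 4-fold, 46 at least 8-fold and 18 at least 16-fold from the nearest line, against 51, 20 and 11 on the higher side. TWIST1 was the nearest line for 146 of the 220 higher genes, and SNAI1 for 189 of the 336 lower genes. SNAI1 was in general the lower line, for 1048 genes against 201 beside TWIST1 and for 939 against 201 beside ZEB2. How far this general difference shapes which line was nearest, or lowest in the genes below, was not tested. All 3 other lines were below the floor for 32 of the higher genes, and FOXQ1 was below it for 63 of the lower genes. Distances that end below the floor are not exact ratios.

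**Figure D2:**
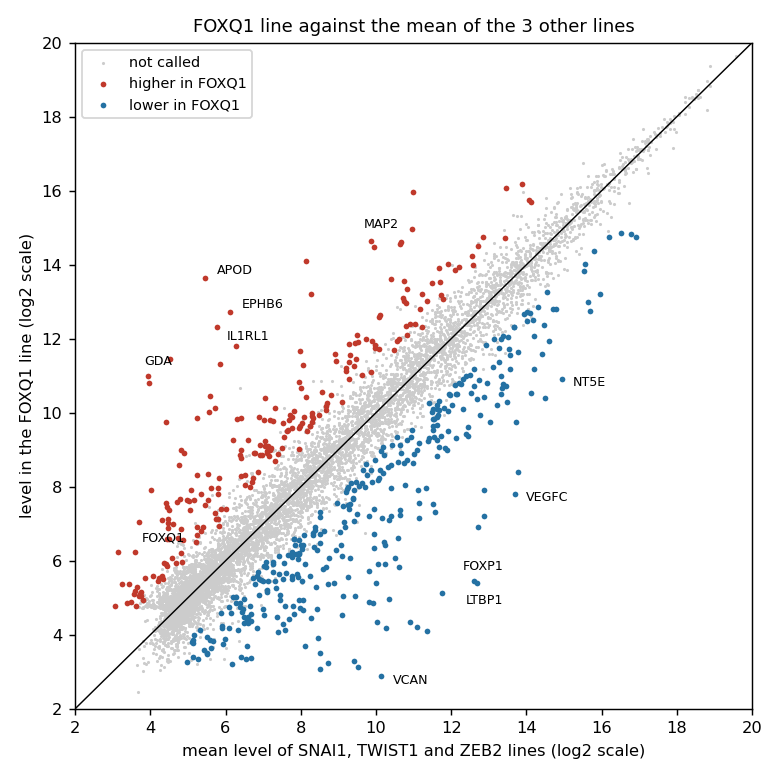
Level of each gene in the FOXQ1 line (vertical, log2 scale) against the mean level of the SNAI1, TWIST1 and ZEB2 lines (horizontal, log2 scale), for the 8236 genes that reach the floor on any of the 4 arrays, with the line of equal level. The 220 genes called higher are in red and the 336 called lower in blue.

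The genes at the 2-fold boundary show how little separates a call from none. CAP2, an actin-regulating protein, was just inside at 11.92 in the FOXQ1 line against 6.98 (SNAI1), 10.92 (TWIST1) and 10.69 (ZEB2), and TNFAIP6, a hyaluronan-binding protein, was just outside at 8.21 in the FOXQ1 line against 7.22 (SNAI1), 6.48 (TWIST1) and 5.40 (ZEB2). On the lower side CGAS, the cytosolic DNA sensor, was just inside at 6.60 in the FOXQ1 line against 7.60 (SNAI1), 7.83 (TWIST1) and 8.01 (ZEB2), and TMA16 was just outside at 11.59 in the FOXQ1 line against 12.58 (SNAI1), 12.73 (TWIST1) and 13.25 (ZEB2). WDR54 and HMGXB3 were also just inside, and DYNLT2B and GUSBP1 just outside, all next to the threshold.

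The genes furthest above the other lines encoded secreted, cell surface and cytoplasmic enzyme proteins of unlike function. APOD (GRCh38.p14 chromosome 3, 195568705 to 195583940), a secreted lipid-binding lipocalin, was at 13.65 in the FOXQ1 line against 5.56 (SNAI1), 5.76 (TWIST1) and 5.07 (ZEB2). GDA, guanine deaminase of purine breakdown, was at 10.98 in the FOXQ1 line against 3.80 (SNAI1), 3.88 (TWIST1) and 4.12 (ZEB2), and CA8, a carbonic anhydrase relative without catalytic activity, was at 10.80 in the FOXQ1 line against 3.52 (SNAI1), 4.34 (TWIST1) and 4.07 (ZEB2). For all 3 genes the other lines lay within 1 log2 unit of each other, and for GDA and CA8 they lay below the floor. The distance to the nearest line was 7.89 for APOD, 6.86 for GDA and 6.46 for CA8. NIBAN1, a stress-responsive protein, was at 9.87 in the FOXQ1 line against 4.95 (SNAI1), 5.41 (TWIST1) and 5.39 (ZEB2), and OLFML2B, a secreted olfactomedin domain protein, was at 9.74 in the FOXQ1 line against 4.16 (SNAI1), 4.60 (TWIST1) and 4.53 (ZEB2). RNF150, a RING finger protein, was at 10.03 in the FOXQ1 line against 5.37 (SNAI1), 6.22 (TWIST1) and 5.12 (ZEB2).

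Receptors formed the next group. IL1RL1, the receptor for interleukin 33, was at 12.32 in the FOXQ1 line against 5.90 (SNAI1), 5.63 (TWIST1) and 5.80 (ZEB2), which placed FOXQ1 above the nearest line by 6.42. EPHB6, an Eph receptor without kinase activity, was at 12.72 in the FOXQ1 line against 5.60 (SNAI1), 6.68 (TWIST1) and 6.08 (ZEB2). ADGRL3, a latrophilin adhesion receptor, was at 11.33 in the FOXQ1 line against 5.90 (SNAI1), 6.92 (TWIST1) and 4.75 (ZEB2) on its brighter probe set, and its other probe set put FOXQ1 above the nearest line by 1.54. CNR1, the cannabinoid receptor of the nervous system, was at 11.81 in the FOXQ1 line against 4.98 (SNAI1), 8.33 (TWIST1) and 5.51 (ZEB2). CD180, a Toll-like receptor relative of B cells, was at 10.12 in the FOXQ1 line against 3.85 (SNAI1), 6.61 (TWIST1) and 6.67 (ZEB2). The other lines were close to each other for IL1RL1 and EPHB6, while TWIST1 stood well above SNAI1 and ZEB2 for CNR1. SNAI1 stood well below the rest for CD180.

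Enzymes of the cell surface and a pair of proteins known from neurons and placenta completed the 15 genes furthest above. SULF1, which removes sulfate groups from heparan sulfate outside the cell, was at 11.45 in the FOXQ1 line against 3.96 (SNAI1), 5.42 (TWIST1) and 4.16 (ZEB2). ENPP1, which makes pyrophosphate from extracellular nucleotides, was at 14.10 in the FOXQ1 line against 9.55 (SNAI1), 9.78 (TWIST1) and 5.07 (ZEB2), and the low ZEB2 value left the other 3 widely spread. MAP2, a microtubule-binding protein of dendrites, was at 14.65 in the FOXQ1 line against 10.30 (SNAI1), 9.54 (TWIST1) and 9.77 (ZEB2). PEG10, a paternally expressed imprinted gene of placenta, was at 14.49 in the FOXQ1 line against 9.67 (SNAI1), 10.64 (TWIST1) and 9.53 (ZEB2). The plot of the furthest genes shows all 30 leaders by line.

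**Figure D3:**
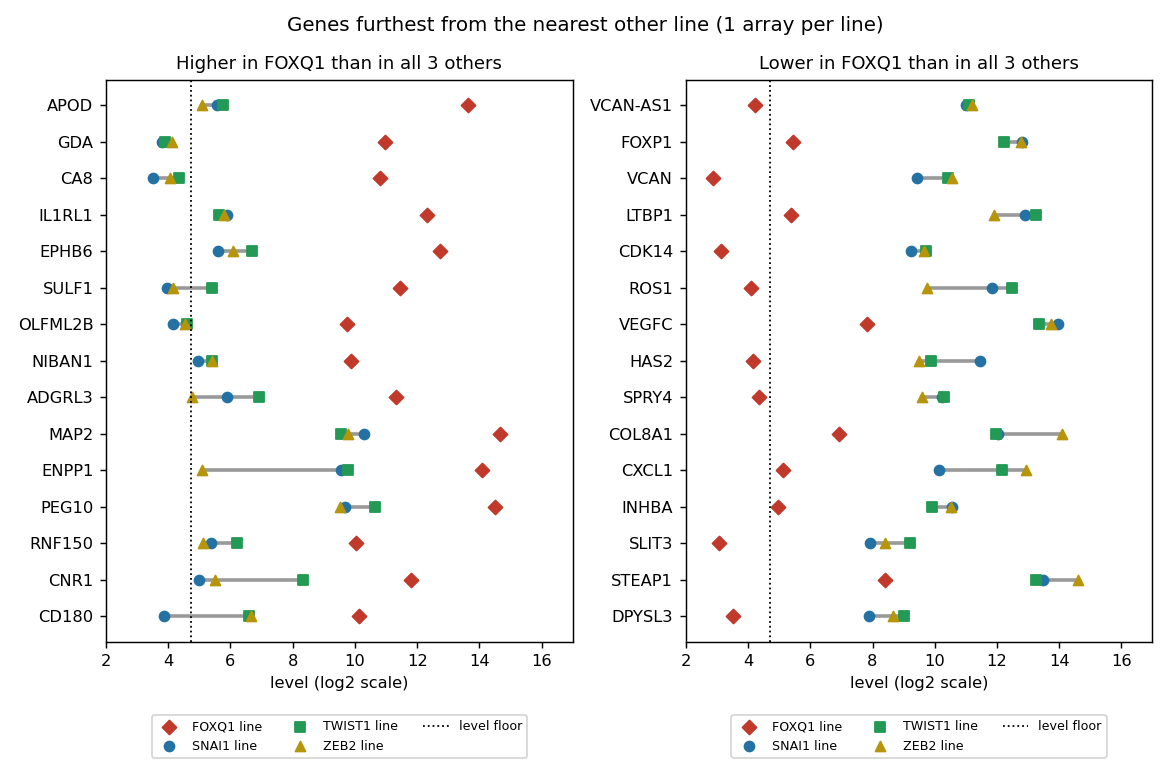
Levels (log2 scale) of the 15 genes furthest above (left) and furthest below (right) the nearest other line, 1 point per array, with a grey bar over the range of the SNAI1, TWIST1 and ZEB2 lines and a dotted line at the floor of 4.72. FOXQ1 lies outside every grey bar by at least 3.45 on the left, and on the right the gap ranges from -4.38 to -6.78.

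Some of the higher genes lay beside each other in the genome. Within 100 kb of the gene, 33 of the 220 higher genes (15%) and 64 of the 336 lower genes (19%) had another gene called in the same direction. Over all 14912 genes, 950 (6.37%) had a gene called higher that near and 1228 (8.23%) a gene called lower. These counts include overlapping entries of the same locus, such as VCAN and VCAN-AS1 or MEST and MIR335. The shares over all genes also include genes below the floor on every array. Whether separate genes cluster was not tested. IL18R1 (chromosome 2, 102355796 to 102398776), the interleukin 18 receptor chain, neighbours IL1RL1 (102311563 to 102352356) and was at 8.90 in the FOXQ1 line against 4.42 (SNAI1), 5.53 (TWIST1) and 4.74 (ZEB2). IL1R1, a further receptor of this cluster, was not called, at 12.81 in the FOXQ1 line against 11.85 (SNAI1), 12.87 (TWIST1) and 11.05 (ZEB2). SGCE, a sarcoglycan that is imprinted with its neighbour PEG10, was at 9.63 in the FOXQ1 line against 8.07 (SNAI1), 8.38 (TWIST1) and 8.30 (ZEB2). These loci and the next were picked out after their values were seen, apart from IL1RL1, IL18R1, IL1R1 and PEG10.

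MEST (GRCh38.p14 chromosome 7, 130486175 to 130506465), a paternally expressed imprinted gene, was at 13.22 in the FOXQ1 line against 7.42 (SNAI1), 10.43 (TWIST1) and 6.95 (ZEB2), and FOXQ1 stood above TWIST1 by 2.79. The span of MEST holds MIR335 (chromosome 7, 130496111 to 130496204), the gene of the microRNA miR-335, whose brighter probe set was at 7.29 in the FOXQ1 line against 5.81 (SNAI1), 5.73 (TWIST1) and 5.64 (ZEB2). Its second probe set stayed below the floor, at 3.61, 3.40, 3.33 and 3.17 in the same order of lines, and the median of the probe sets put FOXQ1 0.85 above the nearest line, short of a call. Whether these probe sets read the microRNA, its precursor or the MEST transcript around it was not checked. The values are therefore no measure of mature miR-335, and both of its arms are shown for reference only. MIR563, a microRNA gene of chromosome 3, was called lower, at 3.34 in the FOXQ1 line against 5.61 (SNAI1), 5.12 (TWIST1) and 5.05 (ZEB2), with FOXQ1 below the floor. The RefSeq mature sequences, with the seed (bases 2 to 8) in capitals, are given here because these are the microRNA genes that were called. The 3 seeds differ from each other. The arms of miR-335 lie at chr7:130496126-130496148 and chr7:130496162-130496183 and miR-563 at chr3:15873822-15873840, all on the plus strand of GRCh38.p14.
hsa-miR-335-5p: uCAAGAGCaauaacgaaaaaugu
hsa-miR-335-3p: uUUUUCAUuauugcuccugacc
hsa-miR-563: aGGUUGACauacguuuccc

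The group of genes most shifted upwards as a whole was that of HLA class I antigen presentation, by which cells display peptides of their own proteins to T cells. Of 14 measured genes 8 were called higher and 0 lower, all 14 were above the mean of the other lines, and the median difference from that mean was 1.78 (1.37 without the SNAI1 array), against 0.01 over all genes. Over all genes 1.48% were called higher and 2.25% lower, the shares to set beside this and every later list count. Genes below the floor on all 4 arrays could not be called, which lowers these shares. Among the 8236 genes that reach the floor 220 were higher and 336 lower, and among 7790 protein-coding genes 197 and 267. All 14 class I genes reach the floor. PSMB9, a catalytic subunit of the immunoproteasome that cuts peptides for display, was at 14.96 in the FOXQ1 line against 7.93 (SNAI1), 12.61 (TWIST1) and 12.32 (ZEB2). PSMB8, another immunoproteasome subunit, was at 13.56 in the FOXQ1 line against 8.77 (SNAI1), 11.50 (TWIST1) and 11.97 (ZEB2). TAP1, a subunit of the peptide transporter of the endoplasmic reticulum, was at 9.10 in the FOXQ1 line against 5.74 (SNAI1), 7.81 (TWIST1) and 7.84 (ZEB2). SNAI1 held the lowest value for all 3, and TWIST1 and ZEB2 lay close to each other.

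Genes acting after the transporter were also higher. TAPBP, which bridges the transporter and class I molecules, was at 9.64 in the FOXQ1 line against 7.61 (SNAI1), 8.54 (TWIST1) and 7.79 (ZEB2). ERAP2, which trims peptides, was at 12.11 in the FOXQ1 line against 7.44 (SNAI1), 10.60 (TWIST1) and 10.42 (ZEB2). Of the class I heavy chains, HLA-B was at 9.12 in the FOXQ1 line against 6.17 (SNAI1), 7.38 (TWIST1) and 7.23 (ZEB2), HLA-C at 9.52 in the FOXQ1 line against 6.82 (SNAI1), 8.37 (TWIST1) and 7.74 (ZEB2) and HLA-F at 12.60 in the FOXQ1 line against 9.33 (SNAI1), 10.92 (TWIST1) and 10 (ZEB2). FOXQ1 was above all 3 other lines in each, and SNAI1 was lowest in each. The heavy chains resemble each other in sequence, and how far probes are shared between them was not tested. TAP2, the partner of TAP1, was not called, at 6.25 in the FOXQ1 line against 5.46 (SNAI1), 6.45 (TWIST1) and 6.68 (ZEB2), nor was ERAP1, at 9 in the FOXQ1 line against 5.77 (SNAI1), 7.62 (TWIST1) and 8.55 (ZEB2). HLA-G, HLA-E, MICA and MICB also missed the call, at 1.19, 0.91, 0.46 and 0.36 above the mean of the 3.

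Interferon-stimulated genes, which cells switch on in response to interferon or viral nucleic acid, showed a partial shift. Of 38 measured, 10 were called higher and 0 lower, 32 lay above the mean of the other lines, and the median difference was 0.66 (0.01 over all genes). Without the SNAI1 array that median was 0.38. PARP14, an ADP-ribosyltransferase, was at 13.62 in the FOXQ1 line against 8.68 (SNAI1), 12 (TWIST1) and 10.49 (ZEB2), and PARP9, a relative of it, was at 9.72 in the FOXQ1 line against 6.62 (SNAI1), 8.49 (TWIST1) and 7.44 (ZEB2). The sensors of double-stranded RNA were among them, with TLR3 at 9.27 in the FOXQ1 line against 6.05 (SNAI1), 7.27 (TWIST1) and 5.28 (ZEB2) and IFIH1 at 7.96 in the FOXQ1 line against 3.34 (SNAI1), 6.62 (TWIST1) and 6.90 (ZEB2). IRF1, a transcription factor of the interferon gamma response, was at 8.92 in the FOXQ1 line against 5.18 (SNAI1), 7.86 (TWIST1) and 7.24 (ZEB2). GBP2, an interferon-induced GTPase, was at 7.63 in the FOXQ1 line against 4.85 (SNAI1), 6.14 (TWIST1) and 5.58 (ZEB2). SNAI1 had the lowest level for these genes apart from TLR3, where ZEB2 did. For IFIH1 and IRF1 the nearest line was just past the threshold, at 1.06 and 1.06.

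The butyrophilins BTN3A1, BTN3A2 and BTN3A3, which present phosphoantigens to gamma delta T cells or assist in it, lay 1.11, 1.79 and 1.56 above the nearest line, and their close sequence similarity leaves the share of each uncertain. SAMD9L, an antiviral factor, lay 1.14 above. Other classical members of the response were not called: the difference from the mean of the 3 was 0.04 for ISG15, a ubiquitin-like protein, 0.21 for RSAD2, an antiviral enzyme, 0.42 for IFI44L and -0.46 for CXCL10, a chemokine.

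**Figure D4:**
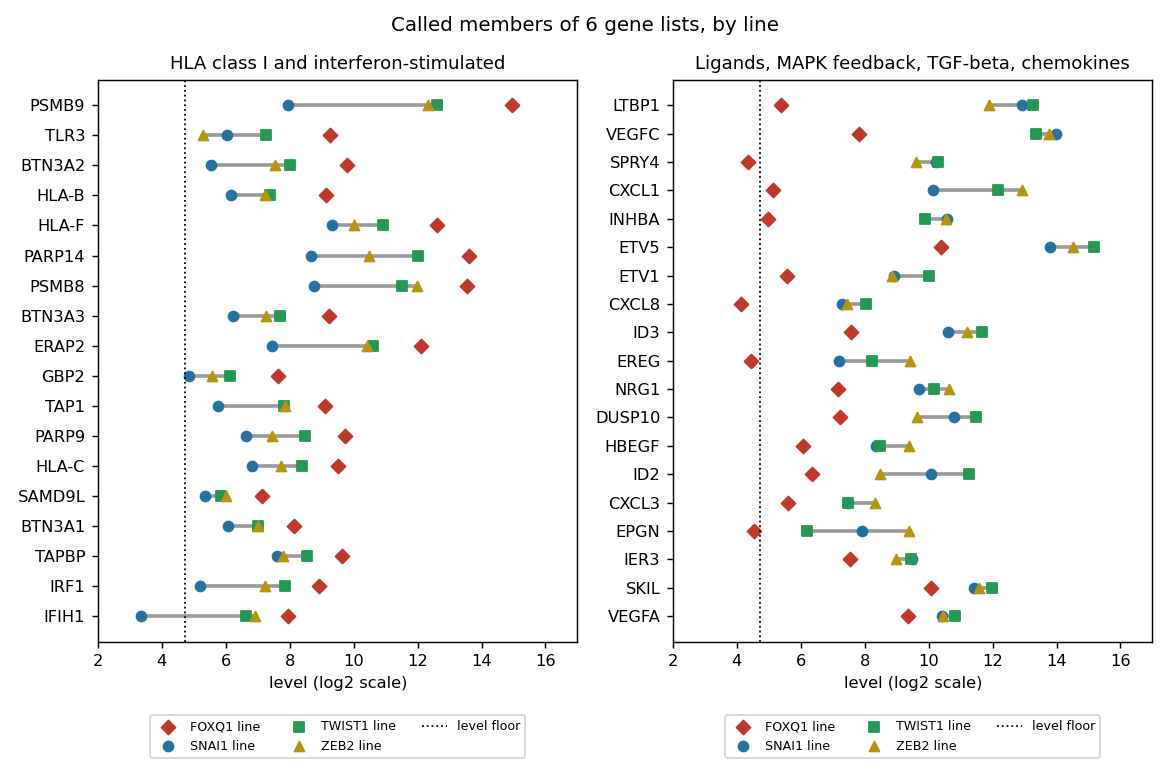
Levels (log2 scale) by line of the called members of the class I and interferon-stimulated lists (left) and of the ligand, MAPK feedback, TGF-beta pathway and chemokine lists (right, lower side only), 1 point per array, with a grey bar over the range of the other 3 lines and a dotted line at the floor of 4.72. SNAI1 marks the low end of every grey bar on the left except that of TLR3, and FOXQ1 lies to the right of all bars there and to the left of all bars in the other panel.

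Interferon-regulated promoters carry an element bound by IRF and STAT factors, and its core, GAAA repeated after any 2 bases, was searched on both strands. RefSeq promoter windows, 250 bases before to 50 after a start, were available for 16 of the genes called in these lists, in 21 windows, of which 10 (47.6%) held the element. The other measured members of the lists held it in 21 of 44 windows (47.7%), a share close to that of the called members. Over all genes it was found in 339 of 10194 windows (3.33%), and among all genes called higher in 20 of 290 (6.90%). The search was added after the values were seen. The 4 windows shown are examples picked from the called genes that held the element, which also include ERAP2 and PARP9. The element is in capitals, and each window runs 5′ to 3′ on the strand of its gene in GRCh38.p14. They lie at chr6:32853655-32853954 on the minus strand for TAP1, chr6:32843998-32844297 on the minus strand for PSMB8, chr6:33314029-33314328 on the minus strand for TAPBP and chr3:122680589-122680888 on the plus strand for PARP14. The capitals cover overlapping copies in TAP1 and TAPBP, and in TAP1 and PSMB8 the element reads on the opposite strand.
TAP1: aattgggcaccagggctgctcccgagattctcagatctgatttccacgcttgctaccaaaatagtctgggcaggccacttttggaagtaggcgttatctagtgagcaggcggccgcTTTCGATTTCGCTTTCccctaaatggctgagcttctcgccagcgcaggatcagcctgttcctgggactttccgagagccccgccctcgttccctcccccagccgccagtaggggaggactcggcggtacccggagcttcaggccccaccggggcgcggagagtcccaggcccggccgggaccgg
PSMB8: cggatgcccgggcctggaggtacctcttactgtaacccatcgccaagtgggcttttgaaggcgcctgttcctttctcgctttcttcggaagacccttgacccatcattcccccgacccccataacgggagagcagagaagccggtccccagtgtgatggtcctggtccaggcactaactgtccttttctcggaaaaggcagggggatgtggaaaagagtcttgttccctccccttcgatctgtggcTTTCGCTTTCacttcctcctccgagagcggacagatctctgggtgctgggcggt
TAPBP: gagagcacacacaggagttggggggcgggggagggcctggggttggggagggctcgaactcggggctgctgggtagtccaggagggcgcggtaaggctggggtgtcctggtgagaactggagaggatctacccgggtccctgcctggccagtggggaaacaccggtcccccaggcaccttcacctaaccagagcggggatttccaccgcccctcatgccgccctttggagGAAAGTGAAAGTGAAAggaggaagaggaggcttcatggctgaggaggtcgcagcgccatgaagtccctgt
PARP14: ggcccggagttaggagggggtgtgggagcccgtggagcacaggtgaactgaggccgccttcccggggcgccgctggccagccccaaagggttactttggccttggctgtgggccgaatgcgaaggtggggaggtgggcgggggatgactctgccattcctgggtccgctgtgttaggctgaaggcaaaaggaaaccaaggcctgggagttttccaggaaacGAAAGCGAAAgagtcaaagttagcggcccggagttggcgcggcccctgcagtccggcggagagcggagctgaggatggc

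Other immune genes were higher as single members of their lists. Cytokine receptors had 3 of 23 called higher and 0 lower, with a median difference of 0.03. They were IL1RL1 and IL18R1, given above, and IL22RA1, which stood 1.11 above the nearest line. Complement genes were called with CFB, a protease of the alternative pathway, at 8.23 in the FOXQ1 line against 5.30 (SNAI1), 6.24 (TWIST1) and 5.92 (ZEB2). CFI, the inhibitory complement protease, stood 1.24 above the nearest line and CD55, a membrane inhibitor of complement, 1.05 above. They were the 3 called of 27 class II and complement genes, whose median difference was 0.06. Of those 27, 17 were below the floor on all 4 arrays, and the median of the other 10 was 0.83. IL1B, the inflammatory cytokine, was at 7.12 in the FOXQ1 line against 3.62 (SNAI1), 4.87 (TWIST1) and 4.94 (ZEB2), and CSF1, the macrophage growth factor, was at 10.14 in the FOXQ1 line against 7.05 (SNAI1), 8.49 (TWIST1) and 6.40 (ZEB2). For IL1B only TWIST1 and ZEB2 of the other lines were above the floor.

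Some heparan sulfate proteoglycans, which hold growth factors at the cell surface, were higher beside SULF1. They were grouped after their values were seen. SDC2, a syndecan, was at 15.97 in the FOXQ1 line against 11.07 (SNAI1), 12.73 (TWIST1) and 9.14 (ZEB2). SDC3, another syndecan, was at 9.80 in the FOXQ1 line against 7.47 (SNAI1), 8.52 (TWIST1) and 7.10 (ZEB2), and GPC1, a glypican, was at 5.60 in the FOXQ1 line against 3.96 (SNAI1), 4.25 (TWIST1) and 4.01 (ZEB2). FOXQ1 exceeded TWIST1, the nearest line, in each, and GPC1 was below the floor in the other lines. SDC1, a syndecan of epithelial cells, was not called, at 7.49 in the FOXQ1 line against 4.45 (SNAI1), 7.30 (TWIST1) and 6.04 (ZEB2). These came from the basement membrane list, of whose 15 genes 3 were called higher and 1 lower, with a median difference of 0.68. The lower one was LAMB1, a laminin chain, at 9 in the FOXQ1 line against 11.17 (SNAI1), 12.10 (TWIST1) and 12.39 (ZEB2).

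Members of further lists also stood above all other lines. The mesenchymal surface list had 3 of 10 called higher, MME, PDGFRB and S100A4, and 1 lower, NT5E, with a median difference of -0.03. TGFBR3, the betaglycan co-receptor for TGF-beta, was at 9.82 in the FOXQ1 line against 4.67 (SNAI1), 8.08 (TWIST1) and 6.15 (ZEB2). MME, the neprilysin peptidase also known as CD10, was at 14.57 in the FOXQ1 line against 9.12 (SNAI1), 12.85 (TWIST1) and 9.92 (ZEB2), and PDGFRB, a platelet-derived growth factor receptor, was at 9.89 in the FOXQ1 line against 7.83 (SNAI1), 8.65 (TWIST1) and 6.79 (ZEB2). NRP2, a co-receptor for semaphorins and VEGF from the axon guidance list, was at 10.82 in the FOXQ1 line against 8.24 (SNAI1), 8.69 (TWIST1) and 6.92 (ZEB2). The other lines were spread by more than 1 log2 unit in all 4 of these genes. TKT, transketolase of the pentose phosphate pathway, was at 16.19 in the FOXQ1 line against 13.75 (SNAI1), 14.46 (TWIST1) and 13.47 (ZEB2). WNT5A, a non-canonical WNT ligand, was at 9.25 in the FOXQ1 line against 7.65 (SNAI1), 7.47 (TWIST1) and 4.66 (ZEB2) on its brighter probe set. Its second probe set was below the floor in every line, at 4.64, 4.42, 4.31 and 4.42 in the same order, and the median of its probe sets put FOXQ1 0.91 above the nearest line, short of a call. S100A4, a calcium-binding protein used as a mesenchymal marker, was at 13.91 in the FOXQ1 line against 11.53 (SNAI1), 12.46 (TWIST1) and 11.07 (ZEB2), and CRABP2, which carries retinoic acid, was at 8.99 in the FOXQ1 line against 5.61 (SNAI1), 5.09 (TWIST1) and 3.71 (ZEB2). ACO1, which also acts as an iron regulatory protein, was at 14.24 in the FOXQ1 line against 12.51 (SNAI1), 12.72 (TWIST1) and 12.40 (ZEB2).

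Below the other lines, several of the 15 genes with the widest gaps encode matrix proteins or enzymes that make matrix. VCAN (GRCh38.p14 chromosome 5, 83471744 to 83582302), the proteoglycan versican, was at 2.88 in the FOXQ1 line against 9.44 (SNAI1), 10.43 (TWIST1) and 10.57 (ZEB2). VCAN-AS1, an antisense transcript inside its span, was at 4.21 in the FOXQ1 line against 10.99 (SNAI1), 11.11 (TWIST1) and 11.21 (ZEB2), and the strand each probe set reads was not checked, so the pair cannot be told apart. LTBP1, which holds latent TGF-beta in the matrix, was at 5.39 in the FOXQ1 line against 12.91 (SNAI1), 13.27 (TWIST1) and 11.89 (ZEB2). FOXQ1 lay -6.56, -6.78 and -6.50 from the nearest line for VCAN, VCAN-AS1 and LTBP1, and no line but FOXQ1 was low on these probe sets. A second VCAN-AS1 probe set was below the floor in every line, at 3.27, 3.72, 4.17 and 3.36 in the same order, and the median of its probe sets put FOXQ1 -3.54 from the nearest line. HAS2, a hyaluronan synthase, was at 4.17 in the FOXQ1 line against 11.45 (SNAI1), 9.87 (TWIST1) and 9.49 (ZEB2), and COL8A1, a short-chain collagen, was at 6.92 in the FOXQ1 line against 12.03 (SNAI1), 11.98 (TWIST1) and 14.10 (ZEB2). SLIT3, a ligand of ROBO receptors, was at 3.07 in the FOXQ1 line against 7.93 (SNAI1), 9.20 (TWIST1) and 8.41 (ZEB2).

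Signalling and transcription genes made up most of the other leaders on the lower side. FOXP1, a forkhead repressor, was at 5.46 in the FOXQ1 line against 12.81 (SNAI1), 12.23 (TWIST1) and 12.78 (ZEB2) on its brighter probe set. A second FOXP1 probe set gave 5.17, 5.51, 4.96 and 6.06 in the same order and did not set FOXQ1 apart. ROS1, a receptor tyrosine kinase, was at 4.09 in the FOXQ1 line against 11.85 (SNAI1), 12.50 (TWIST1) and 9.74 (ZEB2), and CDK14, a cyclin-dependent kinase of WNT signalling, was at 3.14 in the FOXQ1 line against 9.23 (SNAI1), 9.71 (TWIST1) and 9.66 (ZEB2). VEGFC, the lymphatic growth factor, was at 7.81 in the FOXQ1 line against 13.97 (SNAI1), 13.36 (TWIST1) and 13.75 (ZEB2), and INHBA, which forms activin A, was at 4.96 in the FOXQ1 line against 10.57 (SNAI1), 9.90 (TWIST1) and 10.53 (ZEB2). SPRY4, a feedback inhibitor of receptor tyrosine kinase signalling, was at 4.34 in the FOXQ1 line against 10.22 (SNAI1), 10.29 (TWIST1) and 9.60 (ZEB2). CXCL1, a neutrophil chemokine, was at 5.12 in the FOXQ1 line against 10.14 (SNAI1), 12.17 (TWIST1) and 12.93 (ZEB2), with SNAI1 nearest. STEAP1, a metalloreductase of the cell surface, was at 8.41 in the FOXQ1 line against 13.49 (SNAI1), 13.25 (TWIST1) and 14.61 (ZEB2), and DPYSL3, a cytoskeletal protein of growth cones, was at 3.52 in the FOXQ1 line against 7.90 (SNAI1), 9 (TWIST1) and 8.67 (ZEB2).

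Growth factor ligands were lower as a group. Of 20 measured ligands 6 were called lower and 0 higher, and the median difference from the mean of the 3 was -0.69 (-0.45 without the ZEB2 array). Beside VEGFC they were mostly ligands of the EGF receptor family. EREG (epiregulin) was at 4.44 in the FOXQ1 line against 7.18 (SNAI1), 8.23 (TWIST1) and 9.41 (ZEB2) and EPGN (epigen) at 4.55 in the FOXQ1 line against 7.91 (SNAI1), 6.20 (TWIST1) and 9.37 (ZEB2). HBEGF was at 6.08 in the FOXQ1 line against 8.36 (SNAI1), 8.47 (TWIST1) and 9.39 (ZEB2), and NRG1, the ligand of ERBB3 and ERBB4, was at 7.16 in the FOXQ1 line against 9.71 (SNAI1), 10.16 (TWIST1) and 10.63 (ZEB2). FOXQ1 was lowest in each, and ZEB2 was highest in each. VEGFA, the main angiogenic factor, was at 9.35 in the FOXQ1 line against 10.41 (SNAI1), 10.82 (TWIST1) and 10.46 (ZEB2), barely past the threshold. TGFA, another EGF receptor ligand, ran the other way without a call, at 5.83 in the FOXQ1 line against 4.66 (SNAI1), 4.93 (TWIST1) and 5.04 (ZEB2).

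Genes that respond to ERK signalling downstream of such receptors, including its feedback inhibitors, were lower too. Of 19 measured, 5 were called lower and 0 higher, 16 lay below the mean of the other lines, and the median difference was -0.80. Beside SPRY4 the called genes were ETV5 at 10.40 in the FOXQ1 line against 13.80 (SNAI1), 15.16 (TWIST1) and 14.53 (ZEB2), ETV1 at 5.56 in the FOXQ1 line against 8.90 (SNAI1), 10.02 (TWIST1) and 8.85 (ZEB2), DUSP10 at 7.23 in the FOXQ1 line against 10.78 (SNAI1), 11.48 (TWIST1) and 9.63 (ZEB2) and IER3 at 7.54 in the FOXQ1 line against 9.48 (SNAI1), 9.45 (TWIST1) and 8.98 (ZEB2). ETV1 and ETV5 are ETS transcription factors of fibroblast growth factor signalling, and DUSP10 is a phosphatase of stress-activated kinases. DUSP4, an ERK phosphatase, just missed a call, at 5.21 in the FOXQ1 line against 6.19 (SNAI1), 7.04 (TWIST1) and 7.93 (ZEB2). EGR1 and SPRY1, 2 more ERK targets, differed from the mean of the 3 by -0.02 and -0.03.

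In the activin, TGF-beta and BMP pathway 5 of 26 genes were called lower and 1 higher, with a median difference of -0.20 (-0.12 without the ZEB2 array). The lower ones were LTBP1 and INHBA, given above, ID2, ID3 and SKIL. ID3, an inhibitor of DNA binding and a BMP target, was at 7.57 in the FOXQ1 line against 10.60 (SNAI1), 11.66 (TWIST1) and 11.21 (ZEB2), and ID2 was at 6.35 in the FOXQ1 line against 10.08 (SNAI1), 11.26 (TWIST1) and 8.48 (ZEB2). SKIL, a repressor that is itself a TGF-beta target, was at 10.07 in the FOXQ1 line against 11.43 (SNAI1), 11.99 (TWIST1) and 11.57 (ZEB2). The higher one was TGFBR3. Chemokines with CXCL1 in the inflammatory list included CXCL8 at 4.12 in the FOXQ1 line against 7.30 (SNAI1), 8.03 (TWIST1) and 7.44 (ZEB2) and CXCL3 at 5.60 in the FOXQ1 line against 7.48 (SNAI1), 7.48 (TWIST1) and 8.31 (ZEB2). That list had 3 of 29 lower and 2 higher, the latter being IL1B and CSF1, so its members split by gene.

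Matrix genes also split. Fibrillar collagens and matrix glycoproteins had 5 of 20 called lower and 2 higher, with a median difference of -0.16 that became 0.11 without the ZEB2 array. FN1, fibronectin, was at 14.82 in the FOXQ1 line against 16.93 (SNAI1), 16.90 (TWIST1) and 16.51 (ZEB2), and TGFBI, a matrix adaptor induced by TGF-beta, was at 12.79 in the FOXQ1 line against 14.38 (SNAI1), 15.10 (TWIST1) and 14.64 (ZEB2). SPOCK1, a testican proteoglycan, was at 8.06 in the FOXQ1 line against 10.44 (SNAI1), 10.71 (TWIST1) and 11.16 (ZEB2). The other 3 lines lay within 1 log2 unit of each other for these genes, and FOXQ1 lay below them all. COL12A1, a fibril-associated collagen, was higher instead, at 14.74 in the FOXQ1 line against 12 (SNAI1), 13.34 (TWIST1) and 13.18 (ZEB2), as was ECM1 at 6.81 in the FOXQ1 line against 5.35 (SNAI1), 5.22 (TWIST1) and 5.50 (ZEB2). COL1A2, a chain of type I collagen, was at 14.60 in the FOXQ1 line against 14.42 (SNAI1), 11.84 (TWIST1) and 11.88 (ZEB2), high in FOXQ1 and SNAI1 alike.

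Among enzymes that modify collagen 2 of 12 were lower and 1 higher, and among extracellular proteases and their inhibitors 3 of 24 were lower and 1 higher. LOX, which crosslinks collagen, was at 11.60 in the FOXQ1 line against 14.69 (SNAI1), 15.33 (TWIST1) and 13.21 (ZEB2), and P3H2, a collagen prolyl hydroxylase, was at 3.70 in the FOXQ1 line against 8.11 (SNAI1), 9.31 (TWIST1) and 6.93 (ZEB2). ADAMTS2, which trims procollagens, was higher, at 6.58 in the FOXQ1 line against 4.55 (SNAI1), 4.74 (TWIST1) and 4.05 (ZEB2). SERPINE2, a protease inhibitor, was at 6.43 in the FOXQ1 line against 9.81 (SNAI1), 10.15 (TWIST1) and 10.77 (ZEB2), and ADAMTS6, a secreted metalloprotease, was at 9.43 in the FOXQ1 line against 12.37 (SNAI1), 12.35 (TWIST1) and 12.43 (ZEB2). NT5E, the ectonucleotidase CD73 that makes adenosine, was at 10.92 in the FOXQ1 line against 14.68 (SNAI1), 15.27 (TWIST1) and 14.85 (ZEB2), opposite in direction to ENPP1. F3, tissue factor, was at 9.76 in the FOXQ1 line against 12.73 (SNAI1), 13.10 (TWIST1) and 13.23 (ZEB2). The integrin chains ITGA2 and ITGAV stood -1.70 and -1.36 from the nearest line, and these were the 2 called of 9 integrins.

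Regulators of EMT other than the overexpressed ones differed as well. SNAI2, a zinc finger repressor related to SNAI1, was at 13.22 in the FOXQ1 line against 15.43 (SNAI1), 16.75 (TWIST1) and 15.72 (ZEB2), and PRRX1, a homeobox inducer of EMT, was at 7.36 in the FOXQ1 line against 8.94 (SNAI1), 10.71 (TWIST1) and 12.30 (ZEB2). Together with FOXQ1 itself they were the called genes among 8 EMT factors. ROR1, a receptor for WNT5A, was lower, at 9.62 in the FOXQ1 line against 11.81 (SNAI1), 12.84 (TWIST1) and 12.68 (ZEB2). PERP, a desmosomal and p53-regulated protein, was at 6.61 in the FOXQ1 line against 9.94 (SNAI1), 11.23 (TWIST1) and 10.57 (ZEB2), and DSP, desmoplakin, was at 8.72 in the FOXQ1 line against 10.07 (SNAI1), 9.76 (TWIST1) and 10.09 (ZEB2). These were the 2 called of 6 desmosome genes. No gene of 16 in adherens and tight junctions was called, and their median difference was 0.29 (0.04 without the SNAI1 array).

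The list of insulin-like growth factor binding proteins, which hold these growth factors in the medium, had 2 of 8 called lower. It is not made of such proteins alone, since it also counts IGF2BP3, an RNA-binding protein that was not called. IGFBP3 was at 7.20 in the FOXQ1 line against 10.92 (SNAI1), 11.73 (TWIST1) and 15.94 (ZEB2), and IGFBP2 was at 4.54 in the FOXQ1 line against 6.82 (SNAI1), 9.37 (TWIST1) and 11.07 (ZEB2). Both had their highest level in ZEB2 and were widely spread among the other lines. UCHL1, a deubiquitinating enzyme of neurons, had the same order of lines, at 4.34 in the FOXQ1 line against 7.75 (SNAI1), 10.58 (TWIST1) and 14.39 (ZEB2). ROBO1, the receptor that binds SLIT proteins, was at 6.07 in the FOXQ1 line against 11.68 (SNAI1), 10 (TWIST1) and 9.87 (ZEB2), and CADM3, a neuronal adhesion molecule, was at 9.76 in the FOXQ1 line against 13.48 (SNAI1), 13.67 (TWIST1) and 13.99 (ZEB2). Axon guidance and neuronal genes split into 4 higher and 5 lower of 39, with a median difference of 0.03. CDK6, a kinase of G1 phase, was at 6.92 in the FOXQ1 line against 8.95 (SNAI1), 8.74 (TWIST1) and 9.87 (ZEB2), one of 2 genes called among 47 of the cell cycle, where the median difference was 0.35 (0.08 without the SNAI1 array). The other was KIF15, a mitotic motor, at 12.10 in the FOXQ1 line against 10.45 (SNAI1), 10.99 (TWIST1) and 11.04 (ZEB2). With 1 lower and 1 higher of 47, cell cycle genes were called about as often as all genes (2.25% lower and 1.48% higher). The shares over all genes include genes that could not be called. All 47 cell cycle genes reached the floor, and of the 8236 genes that did, 336 were lower and 220 higher.

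STEAP1, STEAP1B and STEAP2 were lower together, and with the zinc and iron transporter SLC39A14 they were the 4 lower of 15 iron handling genes. ACO1 was the higher one. STEAP1B was at 7.15 in the FOXQ1 line against 10.78 (SNAI1), 10.52 (TWIST1) and 12.15 (ZEB2) and STEAP2 at 6.06 in the FOXQ1 line against 7.82 (SNAI1), 7.61 (TWIST1) and 8.32 (ZEB2), and how far the similar STEAP1 and STEAP1B share probes was not tested. STEAP1, STEAP2 and CDK14 are neighbours on chromosome 7, while GTPBP10 and CLDN12 between them were not called. The plot of list shares sets these groups side by side.

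**Figure D5:**
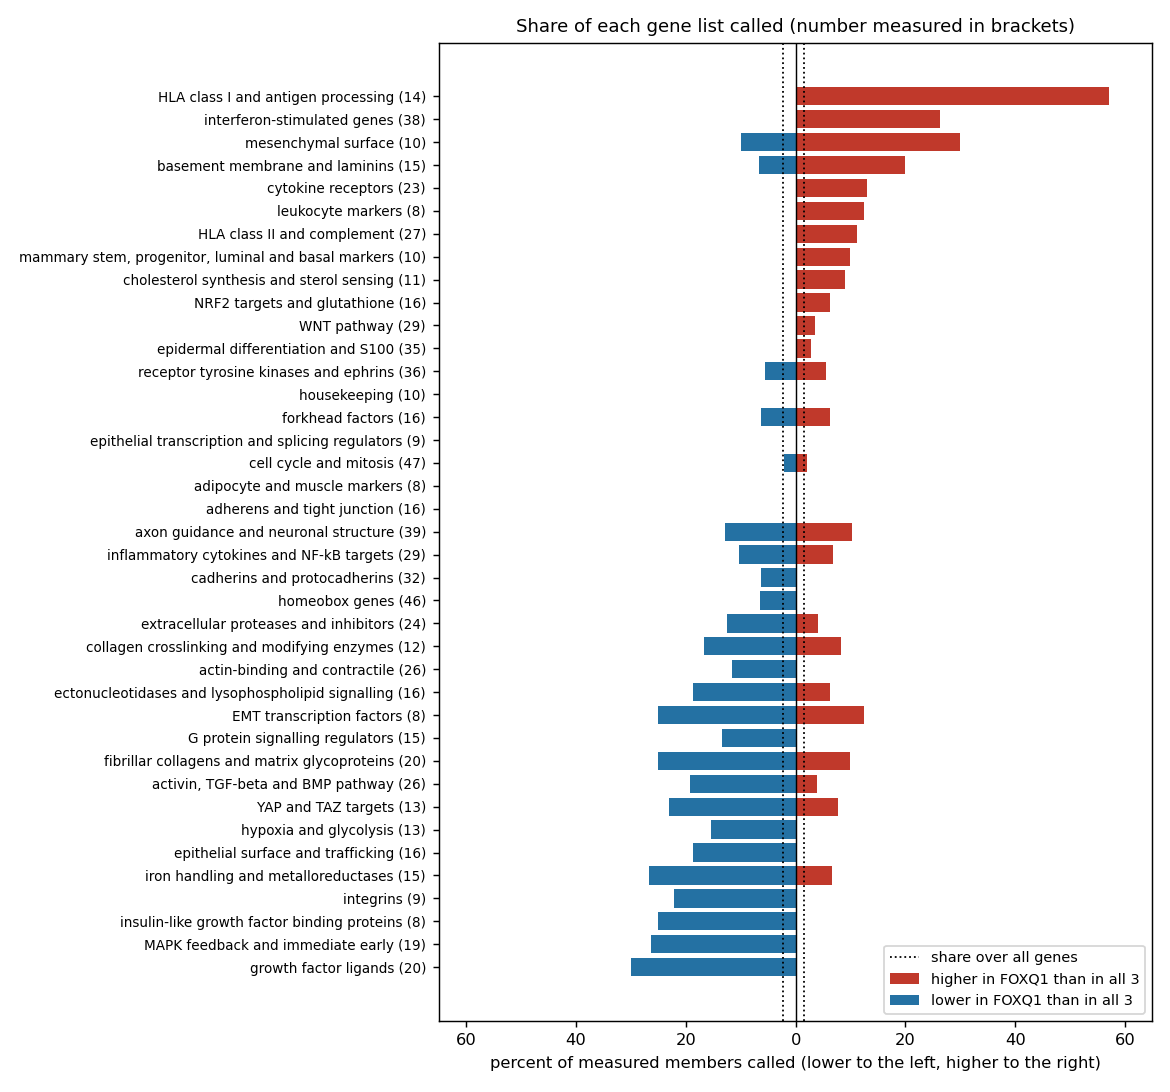
Percent of measured members of each gene list called higher (red, to the right) or lower (blue, to the left) in the FOXQ1 line than in all 3 other lines, for lists with at least 8 measured members (number in brackets). Dotted lines mark the share over all genes, 1.48% higher and 2.25% lower. HLA class I genes reach furthest to the right and growth factor ligands furthest to the left.

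Some lists held no call. None of 9 epithelial transcription and splicing regulators was called, though only 2 of them reached the floor. Of 10 housekeeping genes 0 were called, with a median difference of 0.09. Others had a median near 0 and a few calls, above the share of lower genes overall: among 46 homeobox genes 3 were lower and 0 higher (median -0.02), and among 32 cadherins and protocadherins 2 were lower and 0 higher (median 0.02). The WNT list held 1 higher gene of 29, WNT5A, on 1 of its probe sets, and 21 of the 29 were below the floor on all 4 arrays. Of 13 targets of YAP and TAZ, 3 were lower and 1 higher. Their median difference was -0.25. The commonly used targets CCN1 and CCN2 did not differ by a call, with CCN1 at 14.15 in the FOXQ1 line against 14.22 (SNAI1), 14.73 (TWIST1) and 14.16 (ZEB2) and CCN2 at 13.56 in the FOXQ1 line against 13.51 (SNAI1), 13.85 (TWIST1) and 13.45 (ZEB2).

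Genes past 2-fold against the mean of the 3 but inside their range, or close to it, had another line beside FOXQ1. CLDN11, a tight junction protein, was at 10.66 in the FOXQ1 line against 4.39 (SNAI1), 10.53 (TWIST1) and 4.27 (ZEB2), so FOXQ1 and TWIST1 were alike. SLIT2, a ROBO ligand, was at 10.86 in the FOXQ1 line against 6.50 (SNAI1), 8.03 (TWIST1) and 10.46 (ZEB2) on its brighter probe set. FOXQ1 and ZEB2 were alike there, in contrast to SLIT3. A second SLIT2 probe set gave 4.69, 4.31, 4.52 and 5.70 in the same order, with ZEB2 alone above the floor. CADPS2, a vesicle priming protein, was at 10.84 in the FOXQ1 line against 5.36 (SNAI1), 8.62 (TWIST1) and 9.87 (ZEB2). On the lower side CD24, a surface glycoprotein of epithelial cells, was at 6.69 in the FOXQ1 line against 9.58 (SNAI1), 10.83 (TWIST1) and 6.43 (ZEB2), low in FOXQ1 and ZEB2. CPE, a carboxypeptidase, was at 5.39 in the FOXQ1 line against 9.59 (SNAI1), 9.97 (TWIST1) and 4.57 (ZEB2), again low in these lines. FST, which binds and blocks activin, was at 3.34 in the FOXQ1 line against 5.58 (SNAI1), 3.99 (TWIST1) and 7.17 (ZEB2), low in FOXQ1 and TWIST1. FBXO32, a ubiquitin ligase component, was at 6.75 in the FOXQ1 line against 7.69 (SNAI1), 11.31 (TWIST1) and 10.09 (ZEB2), with SNAI1 close to FOXQ1.

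Called genes were unevenly spread over the chromosomes. On chromosome 5, 62 of 1429 genes (4.34%) were lower and 10 (0.70%) higher, whereas on the other chromosomes 1.5% to 2.86% were lower and 0.89% to 2.30% higher. The median difference over 838 genes of chromosome 5 at or above the floor was -0.16. Set against the same mean, the median there was -0.35 for SNAI1, 0.08 for TWIST1 and 0.22 for ZEB2. These medians include offsets of whole arrays, since SNAI1 lay below that mean and TWIST1 above it in most windows of other chromosomes too. In the first 10 Mb of chromosome 1, for example, SNAI1 was at -0.20, TWIST1 at 0.14 and ZEB2 at 0.06. Whether the shift of chromosome 5 is particular to FOXQ1 was not tested. The chromosome holds VCAN, SPRY4, SLIT3, LOX, TGFBI and ITGA2, and NR2F1, a nuclear receptor at 5.04 in the FOXQ1 line against 8.35 (SNAI1), 10.06 (TWIST1) and 9.95 (ZEB2). Chromosome 6, with the class I region, had the highest share of higher genes. In 158 windows of 10 Mb the median difference stayed between -0.49 and 0.37. DNA copy number of the lines was not measured.

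Promoter windows were also searched for the letters of each factor class. The forkhead core TGTTTAC, on either strand, was in 11 of 290 windows of higher genes (3.79%), 12 of 394 of lower genes (3.05%) and 338 of all 10194 (3.32%). The E-box CACCTG was in 57 (19.7%), 83 (21.1%) and 2029 (19.9%). In windows of genes at or above the floor the shares were 3.15% for the forkhead core and 18% for the E-box. The called genes held these letters about as often as genes in general, in windows that cover only the start of a gene.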

How the data were processed

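RNA from 5 HMLE lines was hybridised to Affymetrix arrays, 1 per line, per the labels. The authors deposited 1 table with 65521 probe sets, whose values (1.99 to 19.73) were taken to be log2 from their range, no base being stated. Since a 16-bit scanner cannot give a log2 reading above 16, the scale had been transformed, and folds assume base 2. Transcriptome Analysis Console and hg38 are named in the submitters' processing notes. The sources used here name no array model, version or normalization. Array medians lay between 4.00 and 4.05, and no rescaling was added.

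The platform annotation gave 16126 probe sets 1 symbol, 419 several and 48976 none. RefSeq (GRCh38.p14) held 15764 of them, and 198 on another chromosome were left out. Each of the 14912 genes was represented by its probe set of highest mean level over the 5 arrays. The floor of 4.72 is the median of gene means, reached by 8236 genes on any of the 4 arrays. No detection calls were used. The number of arrays limits precision, and no p-value was computed.

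The members, the 42 gene lists and the tests were chosen with earlier results of these data known. Named genes were the factors, 15 per direction furthest from the nearest line, 8 per direction past 2-fold against the mean alone, up to 6 per list and the genes at the threshold. Other genes, among them MEST, MIR335, MIR563, SGCE, NR2F1, CRABP2 and the uncalled list members, were chosen after their values were seen. The exon or UTR a probe set covers was not given in the sources used here. Calling was run on simulated data whose noise left out the larger differences between the TWIST1 and ZEB2 lines. That run therefore says nothing of the error of the calls. Loess used statsmodels 0.14.6, figures matplotlib 3.10.9, and all else pandas 2.3.3 and numpy 2.4.6 under Python 3.11.15.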

Additional observations from a re-analysis of the deposited data

How the results depend on the processing

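The 220 higher and 336 lower genes became 250 and 325 after quantile normalization, 215 and 360 after centring on the median gene and 228 and 334 after a loess against the mean array, with 218 and 308, 214 and 336, and 213 and 321 of the original genes kept. Taking the median over probe sets of a gene gave 211 and 328. The threshold mattered more: 557 and 623 genes passed 1.5-fold, 90 and 154 passed 3-fold, and 51 and 106 passed 4-fold. A floor at percentile 75 (7.92) left 155 and 214. The distance to the mean of the 3 gave 523 and 638. Without the SNAI1 array 236 and 536 genes were called, without TWIST1 435 and 401, and without ZEB2 275 and 390. Higher genes made up 39.6% of the calls, 37.4% to 43.5% under the scalings, 30.6% without SNAI1 and 52.0% without TWIST1. No named gene changed direction under the alternatives run for it, and no list median did under quantile normalization or the probe-set median. Over members at or above the floor alone, the medians of the WNT (-0.10), axon guidance (-0.21), cadherin (-0.11), epithelial regulator (-0.08) and inflammatory (0.23) lists took the other sign. Leaving out an array, an alternative chosen after seeing the data, changed the sign of a list median or set it to 0 in 6 (SNAI1), 5 (TWIST1) and 2 (ZEB2) of 42 lists, and changed the sign or moved the median by over 1.5 times in 28, 22 and 20. Those that changed sign include matrix glycoproteins (0.11 without ZEB2), axon guidance (-0.07 without SNAI1) and housekeeping genes (-0.05 without SNAI1). The probe-set median moved 3 named results. No paired analysis was possible because each line has 1 array. Depth has no counterpart here, and levels below the floor have no reliable order.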

Other observations

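Probe sets without a gene used here were called by the same rule. Of 49955 such probe sets, 301 (0.60%) were higher and 397 (0.80%) lower in the FOXQ1 line than in all 3 others. These shares cannot be set against those of the named genes (1.48% higher and 2.25% lower). The floor was derived from the named genes, and probe sets below it on every array could not be called. How many of the probe sets without a gene reach the floor was not counted. Several antisense or intronic transcripts were called together with the gene they overlap or adjoin. SPRY4-IT1 was at 5.29 in the FOXQ1 line against 8.85 (SNAI1), 8.33 (TWIST1) and 8.06 (ZEB2), and HAS2-AS1 at 4.17 against 7.31, 7.22 and 5.94. CADM3-AS1 was at 9.32 against 11.92, 12.13 and 12.35, and NR2F1-AS1 at 5.92 against 9.40, 10.13 and 11.20. On the higher side PSMB8-AS1 was at 7.46 against 3.10, 5.53 and 4.67. These transcripts and their partners share sequence or borders, and the strand that each probe set reads was not checked.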
